A study of Mus musculus with 12 samples.

Results

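Collagen mRNAs were compared among 4 groups of mouse mammary tumors. The members are the protein-coding genes whose mouse symbol consists of Col, a type number, the letter a and a chain number, without Col17a1. There are 43 of them among the 52636 genes listed, namely 11 fibrillar, 6 basement membrane, 9 FACIT (fibril-associated, with interrupted triple helices) and 17 other collagens. Of the 43, 39 had enough counts to be tested among 17970 genes, and Col4a3, Col19a1, Col22a1 and Col26a1 had not.

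The tumors were 2153L, a genetically engineered mouse (GEM) mammary tumor labelled as triple-negative breast cancer (TNBC), implanted into mammary fat pads of Balbc females whose age is not given in the sources used here. They were transduced with P53ERTAM, a tamoxifen-inducible form of the tumor suppressor p53, or with the empty vector (EV). Mice then received for 8 days either combo, which joins ORIN1001 (150 mg/kg daily), which blocks RNA cleavage by IRE1α, a sensor of endoplasmic reticulum stress, with docetaxel (20 mg/kg weekly), a drug that stabilises microtubules, or vehicle. The 4 groups were P53ERTAM combo, P53ERTAM vehicle, EV combo and EV vehicle, with 3 bulk tumors in each and 12 in all. Which mice received tamoxifen, and which promoter drives the vector, is not given in the sources used here. Nor do the labels say that replicates of a group are separate animals, so p-values measure the spread between these samples.

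Collagens are triple helices of chains that each come from a gene of their own, and they form the main structural proteins of the extracellular matrix. Chains are hydroxylated and folded in the endoplasmic reticulum, trimmed outside the cell and cross-linked by lysyl oxidases. Fibrillar collagens build the banded fibers of stroma, type IV collagen builds the sheet under epithelium and around vessels, and FACIT collagens sit on the surface of fibers. In mammary tumors fibroblasts, pericytes, endothelium and the tumor cells themselves can all make collagen, and in a transplanted tumor the host supplies the stroma. In bulk tissue, fewer cells of a type and less RNA per cell cannot be told apart.

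The vector labels were checked by Cdkn1a, a p53 target that encodes a cell cycle inhibitor. It measured 252 to 308 TPM (a level per length of the transcript, scaled to the same total in each library) in P53ERTAM combo tumors and 136 to 189 TPM in P53ERTAM vehicle tumors, against 35.3 to 85.1 TPM in EV combo and 36.7 to 64.6 TPM in EV vehicle tumors. The 10 epithelial markers, Epcam and Cdh1 among them, summed to between 2466 and 6905 TPM in every tumor. Total counts per library ran between 13484873 and 24424964. EV combo libraries differed in make-up, since the noncoding RNA Gm26917 took 10.7 to 11.1% of their counts, against 0.133 to 1.104% in the other 9 libraries. Protein-coding genes held 80.9 to 81.7% of the counts in EV combo libraries and 86.7 to 95.8% elsewhere. With protein-coding genes only, 29 collagen genes were called with combo in EV tumors, against 28 with all genes.

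Collagen mRNA was lowest in EV vehicle tumors. All 43 members together summed to 2106 to 2627 TPM in P53ERTAM combo tumors, 2107 to 3004 TPM in P53ERTAM vehicle tumors, 2734 to 3267 TPM in EV combo tumors and 1249.9 to 1539 TPM in EV vehicle tumors. The first 3 ranges all lie above that of EV vehicle. As a share of all counts, collagen took 0.538 ± 0.071% in P53ERTAM combo tumors, 0.611 ± 0.190% in P53ERTAM vehicle tumors, 0.594 ± 0.051% in EV combo tumors and 0.298 ± 0.027% in EV vehicle tumors (SD, n = 3 each). By TPM, 32 of 39 tested members had their lowest group mean in EV vehicle tumors, including all 11 fibrillar genes. For 15 members the highest group mean of TPM was in EV combo tumors. By mean share of all counts, collagen in EV combo tumors did not exceed that in P53ERTAM vehicle tumors.

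Few genes carried most of the collagen mRNA. Col18a1, a basement membrane proteoglycan core whose C-terminal fragment is endostatin, averaged 499 TPM over the 12 tumors, or 21.5% of collagen TPM. It was followed by Col1a1 (355 TPM), the major chain of fibrillar type I collagen, by Col4a1 (212 TPM), a main chain of basement membranes, and by Col9a1 (178 TPM), a FACIT chain best known from cartilage. These 4 genes made up 53.4% of collagen TPM, and 16 genes made up 90.3%. At the low end, 13 members averaged under 1 TPM over the 12 tumors, and 5 of the tested ones, Col6a4, Col6a5, Col6a6, Col24a1 and Col28a1, were under 1 TPM in every group.

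**Figure D1:**
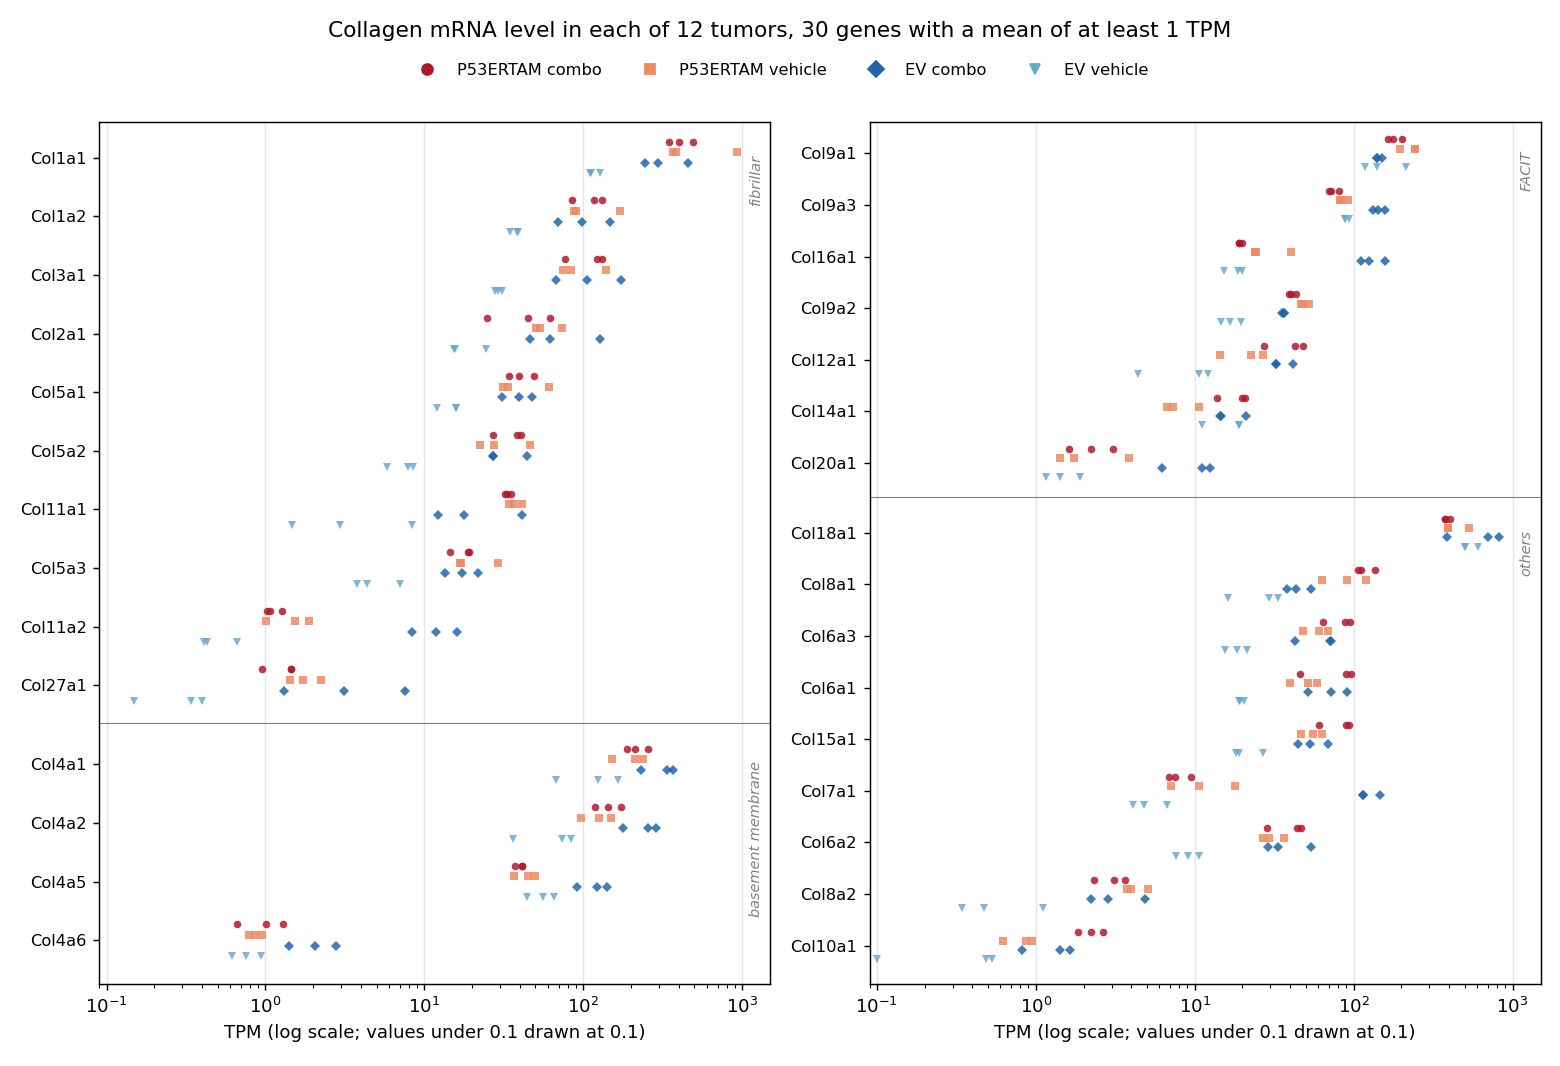
TPM (log axis) of the 30 collagen genes that averaged at least 1 TPM, with 1 point per tumor and 3 tumors per group, ordered by level within each class. The EV vehicle points lie to the left of the others for most fibrillar genes, and the EV combo points stand apart on the right for Col7a1, Col16a1 and Col11a2.

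The plot of levels by tumor shows that the classes differed in which groups were high. Fibrillar collagens made up 33.6 ± 2.6% of collagen TPM in P53ERTAM combo tumors, 37.6 ± 10.5% in P53ERTAM vehicle tumors (29.4, 33.9 and, in replicate 2, 49.4%), 25.5 ± 6.3% in EV combo tumors and 16.5 ± 1.2% in EV vehicle tumors (SD, n = 3 each). Basement membrane collagens took their largest share in EV combo tumors, at 19.5 to 24.4%, against 11.9 to 20.5% in EV vehicle tumors. In TPM the basement membrane class reached 533 to 798 in EV combo tumors, while P53ERTAM combo tumors held 351 to 472, P53ERTAM vehicle tumors 294 to 427 and EV vehicle tumors 149 to 316. FACIT collagens summed to 363 to 386 TPM in P53ERTAM combo tumors, 399 to 438 TPM in P53ERTAM vehicle tumors, 497 to 552 TPM in EV combo tumors and 271 to 369 TPM in EV vehicle tumors. The class of other collagens, led by Col18a1, reached 705 to 883 TPM for P53ERTAM combo, 663 to 876 TPM for P53ERTAM vehicle, 835 to 1259.6 TPM for EV combo and 591 to 720.3 TPM for EV vehicle tumors, with overlap between several groups.

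**Figure D2:**
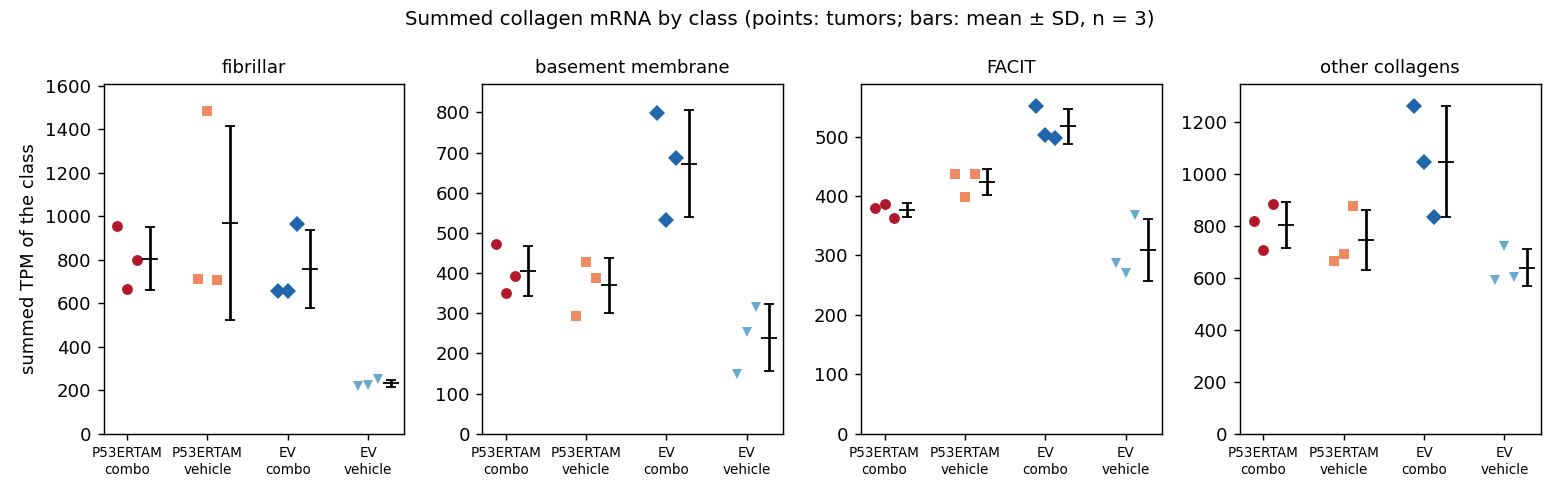
Summed TPM of each collagen class, with 1 point per tumor and the mean ± SD of 3 tumors beside them. Fibrillar collagen lies between 221 and 252 TPM in EV vehicle tumors and between 654 and 1485 TPM in the other 9 tumors, and 1 P53ERTAM vehicle tumor stands out at 1485 TPM.

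One P53ERTAM vehicle tumor, replicate 2, held 1485 TPM of fibrillar collagen, against 713 and 708 TPM in the other two of its group. Its library was also the smallest of the 12, with 13484873 counts, and differed in make-up. Protein-coding genes held 86.65% of its counts, against 92.26 and 93.95% in the other tumors of its group. The noncoding RNA Malat1 took 2.433% of its counts, the highest share of the 12 libraries. Gm26917 took 1.104%, the highest share outside EV combo. The part of these differences in its collagen values was not tested.

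Upstream sequence was read from RefSeq windows on GRCm38.p6, which matched 34 of the 43 members in 37 windows. A window covers the 250 bases before an annotated start. The GC box, GGGCGG on either strand, which the Sp1 family is known to bind, was present in 22 of 37 collagen windows (59.5%) and in 32.7% of 32851 windows of all genes. CCAAT was present in 12 collagen windows (32.4%, against 33.8% of all windows), TATAAA in 4 (10.8%, against 12.4%) and the AP-1 letters TGANTCA in 1 (2.70%, against 6.75%), each on either strand. The p53 half-site was matched in 3 collagen windows (8.11%, against 7.13%). A match is a description of these letters only, and GC-rich windows hold more GC boxes. The 160 bases before the start are printed for 5 genes, each with every EV vehicle tumor below every other tumor. In 3 of them EV combo tumors overlapped P53ERTAM tumors (Col3a1, Col5a1 and Col6a3), and 2 were far highest in EV combo (Col7a1 and Col11a2). Starts are those of the RefSeq windows, and for Col11a2 the printed bases end at 34039137, upstream of the start in the counted annotation at 34039437. Capitals mark the GC box and the TATA box, and Col6a3 has neither within these bases.
Col3a1 chr1:45311378-45311537, plus strand: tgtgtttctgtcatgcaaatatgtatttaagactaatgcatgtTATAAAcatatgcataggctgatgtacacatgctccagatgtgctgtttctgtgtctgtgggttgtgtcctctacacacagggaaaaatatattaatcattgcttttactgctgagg
Col5a1 chr2:27886265-27886424, plus strand: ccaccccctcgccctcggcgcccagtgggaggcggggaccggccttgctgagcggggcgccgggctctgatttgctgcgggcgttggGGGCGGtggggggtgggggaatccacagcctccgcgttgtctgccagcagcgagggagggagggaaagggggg
Col6a3 chr1:90843972-90844131, minus strand: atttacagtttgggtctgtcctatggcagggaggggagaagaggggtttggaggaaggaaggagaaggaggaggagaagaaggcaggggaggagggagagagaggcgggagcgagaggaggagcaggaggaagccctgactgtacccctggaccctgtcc
Col7a1 chr9:108953426-108953585, plus strand: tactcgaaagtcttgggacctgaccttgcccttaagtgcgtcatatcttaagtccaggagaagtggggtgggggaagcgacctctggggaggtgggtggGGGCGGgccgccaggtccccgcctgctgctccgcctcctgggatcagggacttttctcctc
Col11a2 chr17:34038978-34039137, plus strand: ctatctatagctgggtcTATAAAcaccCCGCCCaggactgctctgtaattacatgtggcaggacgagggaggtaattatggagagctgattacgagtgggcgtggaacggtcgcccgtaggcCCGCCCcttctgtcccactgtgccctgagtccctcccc

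Tested across all genes, collagens moved in a few large blocks. The edgeR quasi-likelihood test was used, and a gene was called where its Benjamini-Hochberg adjusted p over 17970 genes was below 0.05. In EV tumors 28 of 39 collagen genes rose with combo and 0 fell, while 18.8% of all genes tested rose, 21.1% fell and 39.9% changed in either direction. The median log2 fold change was 1.62 over the collagen genes and -0.07 over all genes tested. P53ERTAM against EV under vehicle gave 25 collagen genes higher and 1 lower, where 17.9% of all genes were higher, 19.8% lower and 37.8% called in either direction, with medians of 1.58 and 0.01. With combo in P53ERTAM tumors, 1 collagen gene rose and 1 fell, near the 3.3% and 2.98% of all genes, and the medians were -0.20 and 0.005. P53ERTAM against EV under combo gave 3 higher and 9 lower, where 22.1% of all genes were higher and 22.0% lower, with medians of 0.12 and 0.06. The EV vehicle tumors serve both of the first 2 comparisons, and the EV combo tumors serve the first and the last, so their counts are not independent of each other.

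**Figure D3:**
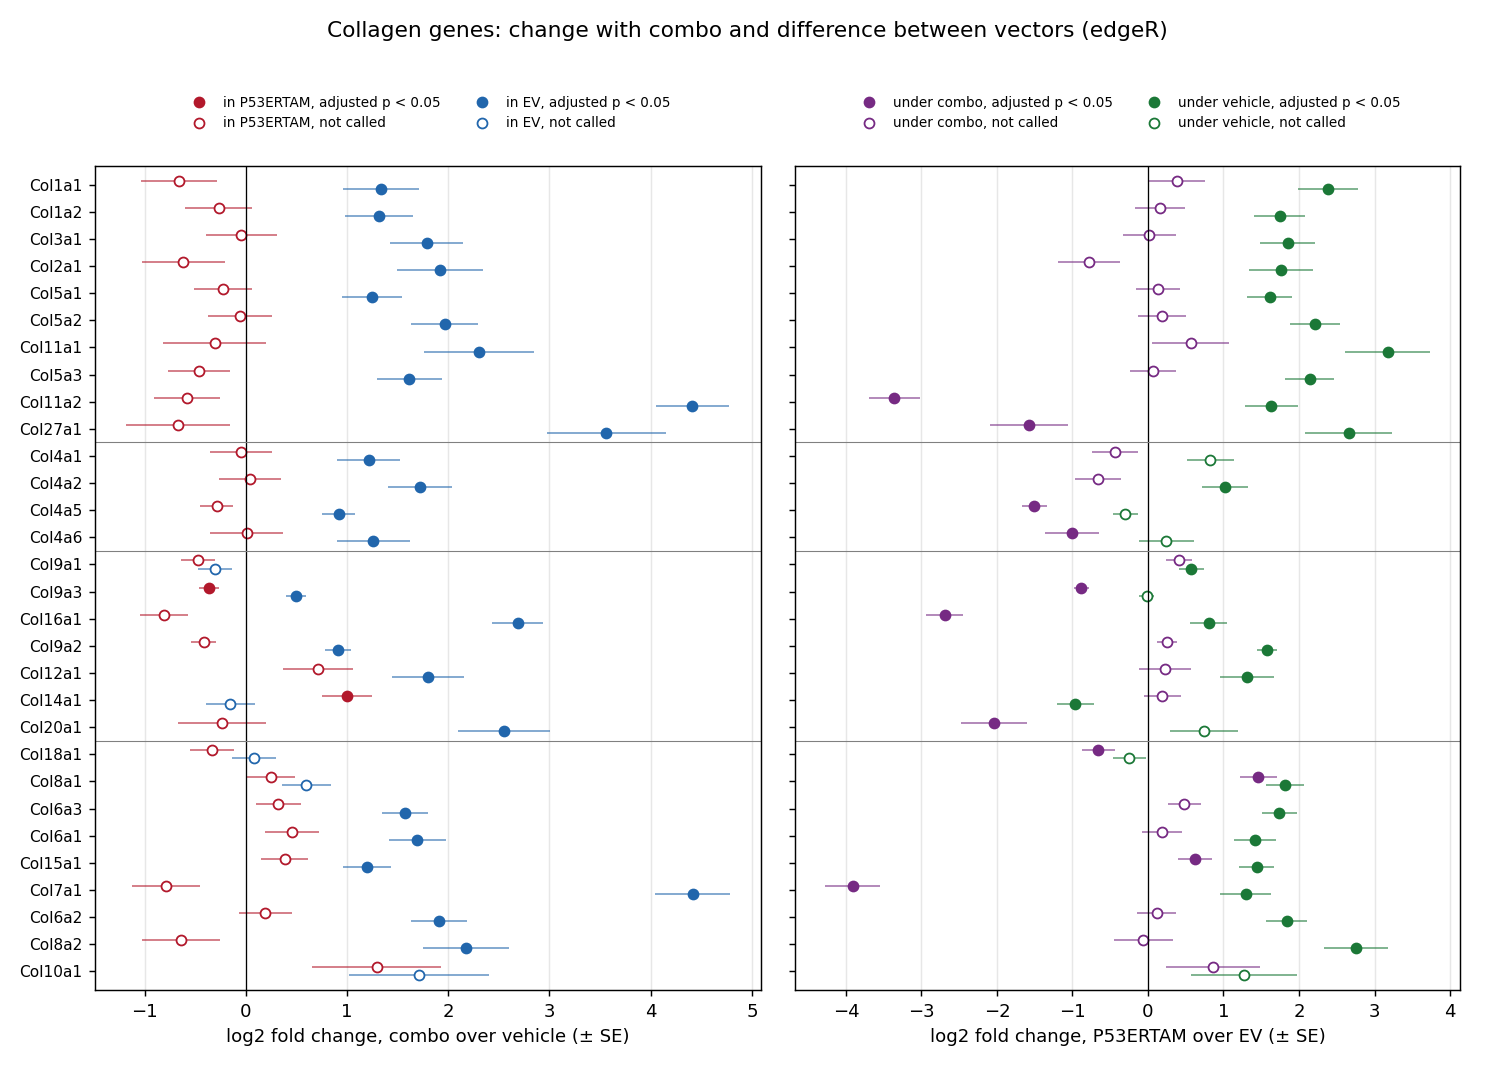
Log2 fold change ± SE (edgeR) of the 30 collagen genes averaging at least 1 TPM, for combo over vehicle in each vector (left) and for P53ERTAM over EV under each treatment (right). Filled points have an adjusted p below 0.05, and lines part the classes in the order fibrillar, basement membrane, FACIT and others. Filled blue (EV) and green (vehicle) points lie mostly to the right of 0, and the red (P53ERTAM) points lie around 0.

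Nearly every fibrillar collagen was higher in both groups compared directly with EV vehicle tumors. In EV tumors 10 of 11 rose with combo (median log2 fold change 1.92), and under vehicle P53ERTAM exceeded EV in 10 of 11 (median 2.14). Over all genes tested, 18.8% rose in the first comparison and 17.9% were higher in the second. With combo in P53ERTAM tumors 0 of 11 passed the test, where 6.28% of all genes were called. The 11 had a median of -0.31 and values between -0.67 and -0.05. The smallest adjusted p among them was 0.298. That negative direction rested on P53ERTAM vehicle replicate 2, since without it 6 of the 11 lay above 0, the median was 0.08 and the values ran between -0.36 and 0.64, with 0 called. Col1a2 was then at 0.26, Col3a1 at 0.41, Col5a1 at 0.28 and Col5a2 at 0.45. Col24a1, the remaining member, was near the detection limit.

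Type I collagen is the main fiber of stroma and is built of Col1a1 and Col1a2 chains. Col1a1 (chr11:94936224-94953042, GRCm38) measured 489.9, 345 and 402 TPM in P53ERTAM combo tumors, 385, 928 and 365 TPM in P53ERTAM vehicle tumors, 245, 297 and 454 TPM in EV combo tumors and 109.6, 112 and 127 TPM in EV vehicle tumors. All 9 tumors of the first 3 groups lay above the 3 EV vehicle tumors. Its log2 fold change was 1.34 ± 0.38 with combo in EV tumors (SE, edgeR adjusted p = 0.0155) and 2.38 ± 0.39 for P53ERTAM over EV under vehicle (adjusted p = 0.000835). The first of these was not called without EV combo replicate 3 or with no filter on low counts. Its adjusted p was at most 0.0696 over 14 alternatives. The second was 1.65 without P53ERTAM vehicle replicate 2. Col1a2 measured 130.5, 85.1 and 116 TPM in P53ERTAM combo tumors, 90.3, 170.2 and 87.2 TPM in P53ERTAM vehicle tumors, 69.2, 97.9 and 146 TPM in EV combo tumors and 34.4, 38.1 and 38.5 TPM in EV vehicle tumors. It repeated the order of Col1a1, with a rise of 1.32 ± 0.33 with combo in EV tumors (adjusted p = 0.00887) and 1.74 ± 0.34 for P53ERTAM over EV under vehicle (adjusted p = 0.00214).

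Col3a1, which forms mixed fibers with type I collagen, measured 131, 76.5 and 122 TPM in P53ERTAM combo tumors, 74.9, 138 and 84.1 TPM in P53ERTAM vehicle tumors, 67.05, 105 and 172 TPM in EV combo tumors and 29.2, 27.7 and 30.9 TPM in EV vehicle tumors. The lowest EV combo tumor still held more than the highest EV vehicle tumor (log2 fold change 1.79 ± 0.36, edgeR adjusted p = 0.00264). P53ERTAM vehicle tumors exceeded EV vehicle tumors by 1.85 ± 0.36 (adjusted p = 0.00226). Type V collagen, which starts fibers and limits their width, is made from Col5a1 and Col5a2 with Col5a3 as a further chain. Col5a1 measured 49.1, 34.0 and 39.5 TPM in P53ERTAM combo tumors, 33.3, 60.4 and 31.2 TPM in P53ERTAM vehicle tumors, 39.2, 30.9 and 47.4 TPM in EV combo tumors and 15.8, 15.8 and 12.01 TPM in EV vehicle tumors. Col5a2, which lies next to Col3a1 on chromosome 1, measured 40.5, 26.9 and 38.4 TPM in P53ERTAM combo tumors, 22.5, 46.4 and 27.3 TPM in P53ERTAM vehicle tumors, 26.9, 27.2 and 44.0 TPM in EV combo tumors and 7.85, 8.49 and 5.84 TPM in EV vehicle tumors. Both chains had every EV vehicle tumor below every other tumor. Combo in EV tumors raised Col5a1 by 1.25 ± 0.30 (adjusted p = 0.00582) and Col5a2 by 1.96 ± 0.33 (adjusted p = 0.000975) on the log2 scale. Col5a3 averaged 17.4 ± 2.6 TPM in P53ERTAM combo, 20.96 ± 7.16 TPM in P53ERTAM vehicle, 17.5 ± 4.2 TPM in EV combo and 5.04 ± 1.72 TPM in EV vehicle tumors (SD, n = 3 each). Under vehicle it was higher in P53ERTAM than in EV tumors by 2.14 ± 0.32 (adjusted p = 0.000455).

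Cartilage-type fibrillar chains were present in these mammary tumors as well. Col2a1, the main fiber of cartilage, averaged 43.7 ± 18.5 TPM in P53ERTAM combo tumors, 59.1 ± 12.8 TPM in P53ERTAM vehicle tumors, 78.4 ± 43.3 TPM in EV combo tumors and 18.4 ± 5.1 TPM in EV vehicle tumors (SD, n = 3 each). Col11a1, which starts cartilage fibers, averaged 33.4 ± 1.6 TPM in P53ERTAM combo tumors, 37.1 ± 3.6 TPM in P53ERTAM vehicle tumors, 23.6 ± 15.2 TPM in EV combo tumors and 4.25 ± 3.63 TPM in EV vehicle tumors. Both rose with combo in EV tumors, by 1.92 ± 0.42 for Col2a1 (edgeR adjusted p = 0.00441) and 2.31 ± 0.55 for Col11a1 (adjusted p = 0.00626). The Col11a1 rise was 1.64 without EV combo replicate 1 and 3.28 without EV vehicle replicate 3. Col11a2 (chr17:34039437-34066685, GRCm38), a partner chain of Col11a1, measured 1.26, 1.07 and 1.02 TPM in P53ERTAM combo tumors, 1.54, 1.89 and 1.01 TPM in P53ERTAM vehicle tumors, 16.03, 8.36 and 11.8 TPM in EV combo tumors and 0.426, 0.408 and 0.666 TPM in EV vehicle tumors. It stood highest in EV combo tumors and lowest in EV vehicle tumors, with no overlap of either with another group. Its rise with combo in EV tumors was 4.41 ± 0.36 (adjusted p = 2e-05). Chondrocyte markers were counted beside these genes. Of 7 such markers 4 were tested, with 0 rising and 1 falling with combo in EV tumors (Sox9, -0.60), where 18.8% of all genes rose and 21.1% fell. Acan, the main cartilage proteoglycan, had 2 counts in 1 EV combo library and 0 in the other 11. Cnmd, a cartilage glycoprotein, averaged 1.05 ± 0.28 TPM in P53ERTAM combo, 1.23 ± 1.68 TPM in P53ERTAM vehicle, 5.63 ± 4.15 TPM in EV combo and 1.01 ± 0.997 TPM in EV vehicle tumors. Its difference with combo in EV tumors was 2.27 ± 0.90 and missed the threshold (adjusted p = 0.0595), and under combo it was lower in P53ERTAM than in EV tumors (-2.34 ± 0.89, adjusted p = 0.0482). Hapln1 was under 1 TPM throughout, while Comp averaged 29.95 ± 2.76 TPM in P53ERTAM combo, 26.5 ± 5.8 TPM in P53ERTAM vehicle, 3.17 ± 2.63 TPM in EV combo and 1.70 ± 0.86 TPM in EV vehicle tumors. Col27a1, a fibrillar chain also known from cartilage, measured 7.57, 1.31 and 3.11 TPM in EV combo tumors and 0.400, 0.342 and 0.150 TPM in EV vehicle tumors, and between 0.948 and 2.25 TPM in the 6 P53ERTAM tumors. EV combo replicate 1 carried most of that group's mean, and the rise in EV tumors was 3.56 ± 0.58 (adjusted p = 0.000754), or 2.70 without that tumor.

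Basement membrane collagens rose with combo in EV tumors in 4 of 5 tested members (median log2 fold change 1.21), and 1 of 5 was higher in P53ERTAM than in EV tumors under vehicle. Over all genes tested, 18.8% rose in the first comparison and 17.9% were higher in the second, so the 1 of 5 is near the all-gene share. Col4a1 and Col4a2, which twist together into the ubiquitous type IV trimer, are transcribed away from each other on chromosome 8 and share 22 bases at their annotated starts. Those bases are printed below on the strand of each gene, because reads over them could be counted for either gene if strand was not used. The strand setting of the counting is not given in the sources used here.
Col4a1 chr8:11312805-11312826, minus strand: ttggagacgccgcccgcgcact
Col4a2 chr8:11312805-11312826, plus strand: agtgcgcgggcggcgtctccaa

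Col4a1 measured 256, 189.5 and 212 TPM in P53ERTAM combo tumors, 151, 239 and 210.2 TPM in P53ERTAM vehicle tumors, 366, 231 and 337 TPM in EV combo tumors and 67.3, 124 and 165 TPM in EV vehicle tumors. The 2 EV groups did not overlap, and the log2 fold change with combo was 1.21 ± 0.31 (edgeR adjusted p = 0.00909). P53ERTAM vehicle and EV vehicle tumors did overlap, with a difference of 0.83 ± 0.31 that missed the threshold (adjusted p = 0.053). Col4a2 measured 172, 118 and 143 TPM in P53ERTAM combo tumors, 97.001, 149.8 and 126 TPM in P53ERTAM vehicle tumors, 288, 178 and 255 TPM in EV combo tumors and 36.2, 73.2 and 84.1 TPM in EV vehicle tumors. It rose by 1.72 ± 0.31 with combo in EV tumors (adjusted p = 0.00154). Under vehicle it was higher in P53ERTAM than in EV tumors by 1.02 ± 0.31 (adjusted p = 0.022), a call that was lost without P53ERTAM vehicle replicate 2, with an adjusted p of at most 0.112 over 15 alternatives.

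Col4a5 and Col4a6, whose chains form a type IV trimer of smooth muscle and some epithelial basement membranes, set EV combo apart from all other groups. Col4a5 measured 41.0, 41.0 and 37.0 TPM in P53ERTAM combo tumors, 44.6, 36.7 and 49.9 TPM in P53ERTAM vehicle tumors, 141, 122 and 91.3 TPM in EV combo tumors and 44.3, 55.9 and 65.6 TPM in EV vehicle tumors. It rose by 0.92 ± 0.16 with combo in EV tumors (edgeR adjusted p = 0.00096). Under combo it was lower in P53ERTAM than in EV tumors, with a log2 fold change of -1.50 ± 0.16 (adjusted p = 2.26e-05). Col4a6 was scarce, at 1.29, 1.01 and 0.658 TPM in P53ERTAM combo tumors, 0.793, 0.956 and 0.866 TPM in P53ERTAM vehicle tumors, 2.77, 2.05 and 1.41 TPM in EV combo tumors and 0.750, 0.612 and 0.937 TPM in EV vehicle tumors. Its rise with combo in EV tumors (1.26 ± 0.36, adjusted p = 0.014) was lost without EV combo replicate 1. Col4a4, a chain of kidney and eye basement membranes, measured 1.58, 1.40 and 0.951 TPM in P53ERTAM combo tumors, 0.947, 0.626 and 0.914 TPM in P53ERTAM vehicle tumors, 0.399, 0.745 and 0.713 TPM in EV combo tumors and 0.621, 0.144 and 0.337 TPM in EV vehicle tumors. Under combo it was higher in P53ERTAM than in EV tumors by 1.15 ± 0.44 (adjusted p = 0.0498), a value at the threshold that was lost without any 1 of the 6 tumors. The call of Col4a4 was kept in 4 of 14 alternatives. It was also lost with protein-coding genes only, DESeq2 size factors, a replicate block, and GC and length offsets. Col4a3, its partner, had at most 0.164 TPM in any tumor.

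FACIT collagens differed among themselves. In EV tumors 5 of 7 tested members rose with combo (median 0.91), and under vehicle 4 were higher and 1 lower in P53ERTAM than in EV tumors (median 0.74). Over all genes tested, 18.8% rose in the first comparison, and 17.9% were higher and 19.8% lower in the second. Type IX collagen, which coats cartilage fibers, is made of 3 chains that did not move together. Col9a1 measured 178, 202 and 165 TPM in P53ERTAM combo tumors, 244, 197 and 242 TPM in P53ERTAM vehicle tumors, 140.1, 151 and 139.6 TPM in EV combo tumors and 140.1, 118 and 213 TPM in EV vehicle tumors. With combo in EV tumors its change was -0.31 ± 0.17 and did not pass the test (edgeR adjusted p = 0.165). Col9a2 measured 43.5, 40.1 and 39.1 TPM in P53ERTAM combo tumors, 48.3, 46.4 and 52.5 TPM in P53ERTAM vehicle tumors, 36.5, 35.3 and 36.4 TPM in EV combo tumors and 19.7, 14.7 and 16.6 TPM in EV vehicle tumors. It rose by 0.91 ± 0.13 with combo in EV tumors (adjusted p = 0.000312) and was higher by 1.58 ± 0.13 in P53ERTAM than in EV tumors under vehicle (adjusted p = 1.03e-05). Col9a3 measured 72.1, 81.1 and 69.9 TPM in P53ERTAM combo tumors, 92.8, 81.8 and 83.6 TPM in P53ERTAM vehicle tumors, 158, 133 and 142 TPM in EV combo tumors and 87.8, 94.1 and 88.5 TPM in EV vehicle tumors. It stood highest in EV combo tumors, with a rise of 0.50 ± 0.10 over EV vehicle tumors (adjusted p = 0.00195). Col9a3 shares 234 of its exon bases with Tcfl5 on the opposite strand, but Tcfl5 had 30 counts over the 12 libraries, against 26065 for Col9a3.

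Col12a1 and Col14a1 bind the surface of type I fibers. Col12a1 measured 42.9, 27.2 and 48.0 TPM in P53ERTAM combo tumors, 14.5, 22.8 and 27.0 TPM in P53ERTAM vehicle tumors, 32.7, 32.5 and 41.6 TPM in EV combo tumors and 4.40, 12.1 and 10.6 TPM in EV vehicle tumors. It rose with combo in EV tumors by 1.80 ± 0.36 (edgeR adjusted p = 0.00235). Under vehicle it was higher in P53ERTAM than in EV tumors by 1.31 ± 0.35 (adjusted p = 0.0125), which was lost without P53ERTAM vehicle replicate 2, with an adjusted p of at most 0.0741 over 15 alternatives. Col14a1 went its own way, at 20.8, 13.8 and 19.8 TPM in P53ERTAM combo tumors, 10.6, 7.36 and 6.68 TPM in P53ERTAM vehicle tumors, 14.4, 14.7 and 21.1 TPM in EV combo tumors and 19.1, 11.1 and 19.1 TPM in EV vehicle tumors. Its lowest group was P53ERTAM vehicle, and those 3 tumors lay below all 9 others. It was the 1 collagen lower in P53ERTAM than in EV tumors under vehicle (-0.96 ± 0.25, adjusted p = 0.00938) and the 1 collagen that rose with combo in P53ERTAM tumors (0.997 ± 0.249, adjusted p = 0.0355).

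Col16a1 and Col20a1 were high in EV combo tumors alone. Col16a1, a minor chain of skin and cartilage matrix, measured 19.9, 18.98 and 19.1 TPM in P53ERTAM combo tumors, 24.2, 40.5 and 24.1 TPM in P53ERTAM vehicle tumors, 158, 125 and 111 TPM in EV combo tumors and 15.3, 19.9 and 18.8 TPM in EV vehicle tumors. The rise with combo in EV tumors was 2.69 ± 0.25 (edgeR adjusted p = 4.42e-05). Col20a1 measured 2.22, 3.05 and 1.63 TPM in P53ERTAM combo tumors, 1.74, 3.87 and 1.42 TPM in P53ERTAM vehicle tumors, 12.4, 11.1 and 6.19 TPM in EV combo tumors and 1.43, 1.16 and 1.90 TPM in EV vehicle tumors. It rose by 2.55 ± 0.45 with combo in EV tumors (adjusted p = 0.00097). Col20a1 shares 79 exon bases with BX649560.1 on the same strand, so its counts are uncertain.

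Among the other collagens, 9 of 16 tested members rose with combo in EV tumors (median 1.63) and under vehicle P53ERTAM exceeded EV in 10 of 16 (median 1.56). Over all genes tested, 18.8% rose in the first comparison and 17.9% were higher in the second. Type VI collagen forms beaded filaments near cells from Col6a1, Col6a2 and Col6a3. Col6a1 measured 89.7, 45.7 and 95.7 TPM in P53ERTAM combo tumors, 39.9, 51.8 and 59.0 TPM in P53ERTAM vehicle tumors, 72.2, 51.9 and 90.3 TPM in EV combo tumors and 18.9, 20.4 and 19.2 TPM in EV vehicle tumors. Col6a2 measured 44.2, 28.7 and 47.0 TPM in P53ERTAM combo tumors, 27.0, 36.6 and 29.6 TPM in P53ERTAM vehicle tumors, 33.6, 28.8 and 54.1 TPM in EV combo tumors and 9.09, 10.7 and 7.61 TPM in EV vehicle tumors. Col6a3 measured 94.7, 64.3 and 88.4 TPM in P53ERTAM combo tumors, 47.7, 60.9 and 68.6 TPM in P53ERTAM vehicle tumors, 71.4, 43.1 and 71.8 TPM in EV combo tumors and 18.5, 21.3 and 15.6 TPM in EV vehicle tumors. All 3 chains were lowest in EV vehicle tumors, which did not overlap any other group. With combo in EV tumors the rises were 1.69 ± 0.28 for Col6a1 (edgeR adjusted p = 0.000804), 1.91 ± 0.27 for Col6a2 (adjusted p = 0.000402) and 1.57 ± 0.23 for Col6a3 (adjusted p = 0.000413). P53ERTAM exceeded EV under vehicle by 1.42 ± 0.28 for Col6a1 (adjusted p = 0.00205), 1.83 ± 0.27 for Col6a2 (adjusted p = 0.00041) and 1.74 ± 0.23 for Col6a3 (adjusted p = 0.000196).

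Col7a1, the anchoring fibril that fastens epithelial basement membrane to stroma, stood far higher in EV combo tumors than in the other groups. It lies at chr9:108953586-108984875 (GRCm38) and measured 9.45, 7.48 and 6.91 TPM in P53ERTAM combo tumors, 10.6, 18.1 and 7.11 TPM in P53ERTAM vehicle tumors, 148, 114 and 114 TPM in EV combo tumors and 6.70, 4.78 and 4.09 TPM in EV vehicle tumors. The rise with combo in EV tumors was 4.41 ± 0.37 (edgeR adjusted p = 4.38e-05). Under vehicle P53ERTAM tumors held more than EV tumors by 1.29 ± 0.34 (adjusted p = 0.0113). Col15a1 and Col18a1 are the multiplexins, which carry glycosaminoglycan chains at basement membranes. Col15a1 measured 89.2, 60.4 and 94.3 TPM in P53ERTAM combo tumors, 47.0, 63.3 and 55.6 TPM in P53ERTAM vehicle tumors, 44.6, 52.9 and 69.4 TPM in EV combo tumors and 18.9, 27.1 and 18.2 TPM in EV vehicle tumors. It rose by 1.20 ± 0.24 with combo in EV tumors (adjusted p = 0.002). Col18a1, the most abundant member, measured 375, 377 and 405 TPM in P53ERTAM combo tumors, 392, 391 and 529 TPM in P53ERTAM vehicle tumors, 826, 703 and 387 TPM in EV combo tumors and 501, 602 and 503 TPM in EV vehicle tumors. EV combo replicate 3 lay apart from the other two tumors of its group, and the change with combo in EV tumors was 0.08 ± 0.22 (adjusted p = 0.798).

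Type VIII collagen forms short-chain networks in vessel walls. Col8a1 measured 107, 112 and 136 TPM in P53ERTAM combo tumors, 90.8, 63.0 and 119 TPM in P53ERTAM vehicle tumors, 53.7, 43.5 and 38.3 TPM in EV combo tumors and 16.2, 29.5 and 33.6 TPM in EV vehicle tumors. All 6 P53ERTAM tumors lay above all 6 EV tumors. P53ERTAM exceeded EV by 1.46 ± 0.25 under combo (edgeR adjusted p = 0.000555) and by 1.81 ± 0.25 under vehicle (adjusted p = 0.000245). Col8a2 measured 2.34, 3.12 and 3.62 TPM in P53ERTAM combo tumors, 5.05, 3.74 and 3.99 TPM in P53ERTAM vehicle tumors, 2.23, 2.84 and 4.87 TPM in EV combo tumors and 0.341, 1.12 and 0.470 TPM in EV vehicle tumors. Its levels were lowest in EV vehicle tumors, with a rise of 2.17 ± 0.42 with combo in EV tumors (adjusted p = 0.00171), or 2.86 without EV vehicle replicate 2. Scarce members also moved, as with the transmembrane collagen Col25a1, at 3.60, 0.650 and 0.253 TPM in EV combo tumors and 0.0474, 0.0215 and 0 TPM in EV vehicle tumors. The call of Col25a1 was lost with voom (adjusted p = 0.0654, the highest over 14 alternatives). Col6a5 had 12 counts over the EV combo libraries and 14 over the P53ERTAM vehicle libraries, against 0 over the EV vehicle libraries. With EV vehicle set to a floor of 3 counts over the group, the ratios are 5.28 and 6.03. They are descriptive only, since the 12 and 14 counts were taken as observed. The Col6a5 call with combo in EV tumors was lost with voom and without any 1 of the EV tumors. Its call under vehicle was lost with voom, without P53ERTAM vehicle replicate 2 and without any 1 of the EV vehicle tumors. Col10a1, Col8a1, Col18a1, Col13a1, Col23a1, Col6a4 and Col6a6 did not pass the test with combo in EV tumors.

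In P53ERTAM tumors with combo the share of collagens called was near that of all genes. Beside Col14a1, which rose, Col9a3 fell (log2 fold change -0.37 ± 0.10, edgeR adjusted p = 0.0463), and 37 of 39 were not called. Over all genes tested, 6.28% were called in either direction. The number of collagens called was 4 with DESeq2, 8 with voom and 0 without P53ERTAM vehicle replicate 2. Both calls depended on single tumors, with Col14a1 called in 8 of 15 alternatives (adjusted p up to 0.141) and Col9a3 in 7 of 15 (up to 0.204). Col14a1 was lost without P53ERTAM combo replicate 1 or 3 and without any 1 of the P53ERTAM vehicle tumors. Col9a3 was lost without any 1 of the P53ERTAM combo tumors and without P53ERTAM vehicle replicate 1 or 2. The median over collagen genes was -0.20, and 0.22 without P53ERTAM vehicle replicate 2, the tumor with high fibrillar collagen. Col1a1 had a change of -0.66 ± 0.37 (adjusted p = 0.304), and of 0.08 without that tumor. Macrophage markers rose in this comparison in 6 of 6 tested genes, and their summed TPM was 1981 to 2647 in P53ERTAM combo tumors against 634 to 859.9 in P53ERTAM vehicle tumors. Their part in the collagen values was not tested.

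P53ERTAM combo and EV combo tumors differed in 12 of 39 collagens, a share of either direction below the 44.1% of all genes. Lower in P53ERTAM combo were Col7a1 (-3.91 ± 0.36, edgeR adjusted p = 1.38e-05), Col11a2 (-3.36 ± 0.33, adjusted p = 1.17e-05), Col16a1 (-2.69 ± 0.25, adjusted p = 1.07e-05) and Col20a1 (-2.04 ± 0.44, adjusted p = 0.00233). Col27a1 (-1.58 ± 0.52, adjusted p = 0.0268), Col4a5 (-1.50 ± 0.16), Col4a6 (-1.01 ± 0.36, adjusted p = 0.0343), Col9a3 (-0.88 ± 0.10, adjusted p = 2.88e-05) and Col18a1 (-0.66 ± 0.22, adjusted p = 0.0273) were lower as well. Higher in P53ERTAM combo were Col8a1, Col4a4 and Col15a1, the last by 0.62 ± 0.23 (adjusted p = 0.0437). The calls of Col4a4, Col4a6, Col15a1, Col18a1 and Col27a1 were each lost without EV combo replicate 1 and without P53ERTAM combo replicates as well. Adjusted p ran up to 0.224 over 14 alternatives. Those of Col4a6, Col15a1, Col18a1 and Col27a1 were also lost with no filter on low counts. Those of Col4a4 and Col15a1 were lost with protein-coding genes only. The number called ran between 7 and 12 when 1 tumor was left out. Type I, III, V and VI chains did not pass the test here, with log2 differences between 0.02 and 0.48 for Col1a1, Col1a2, Col3a1, Col5a1, Col5a2, Col6a1, Col6a2 and Col6a3. For Col3a1 the sign turned under both DESeq2 settings (-0.02) and with protein-coding genes only (-0.10), and for Col1a2, Col5a1, Col6a1 and Col6a2 it turned when single tumors were left out.

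**Figure D4:**
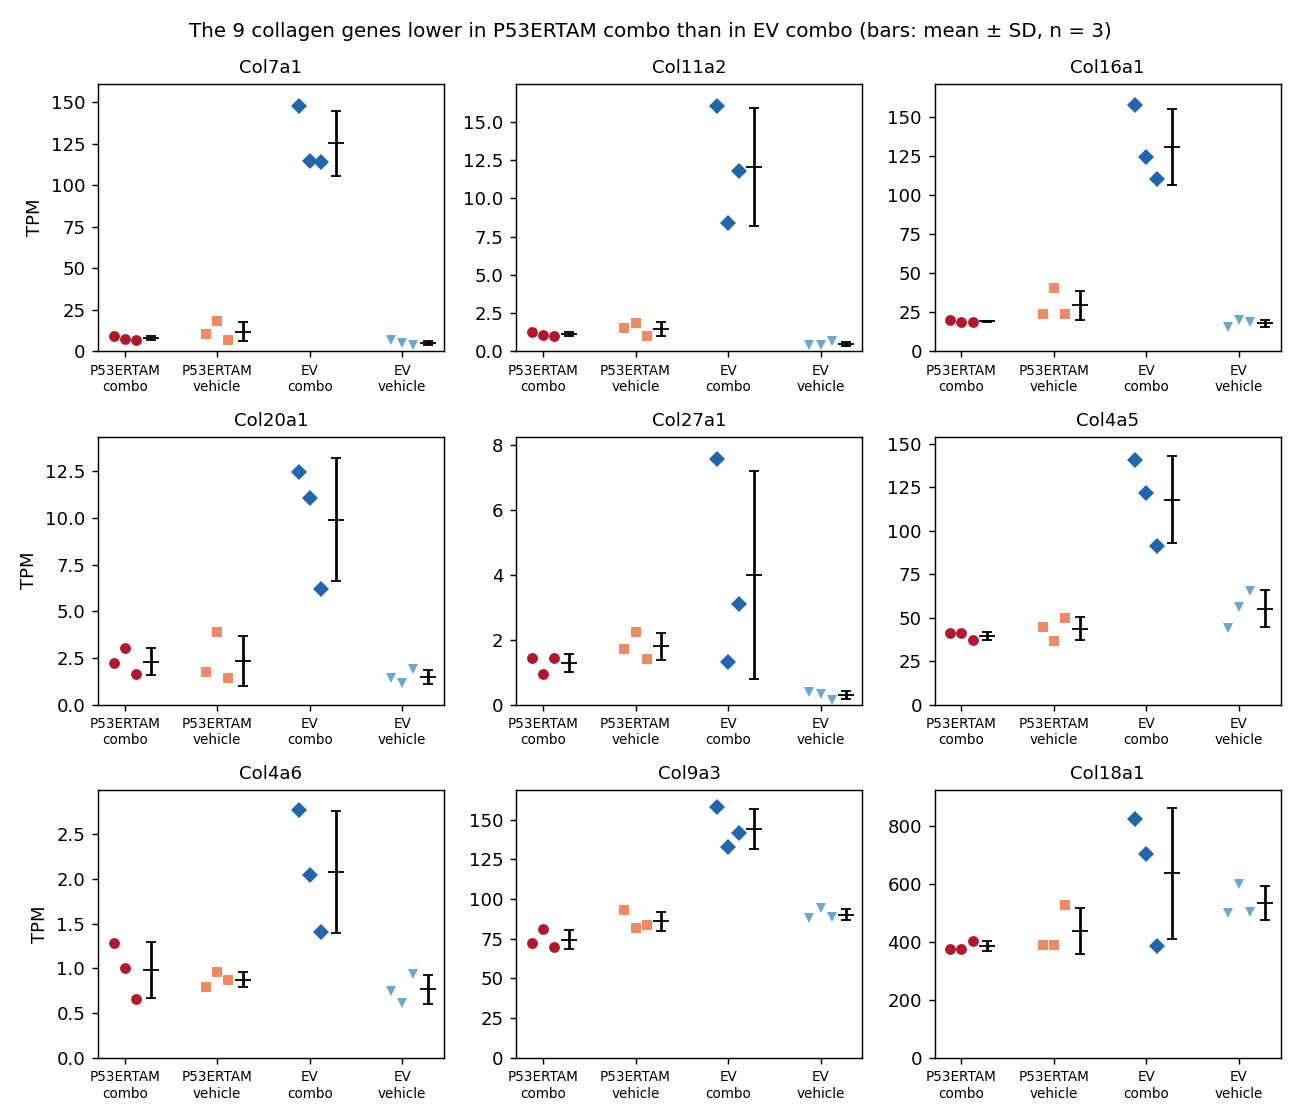
TPM in each tumor of the 9 collagen genes lower in P53ERTAM combo than in EV combo tumors, with the mean ± SD of 3 tumors beside the points. The 3 EV combo tumors lie above all other 9 tumors for Col7a1, Col11a2, Col16a1, Col20a1, Col4a5, Col4a6 and Col9a3, while for Col27a1 and Col18a1 1 EV combo tumor lies among them.

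The effect of combo differed between the vectors for most of these genes. In the interaction, the combo change in P53ERTAM tumors minus that in EV tumors, 23 of 39 collagens were lower and 1 higher, where 17.2% of all genes were lower, 18.8% higher and 36.0% called in either direction. The median was -1.58 over the collagen genes and 0.13 over all genes tested. By class, 10 of 11 fibrillar, 3 of 5 basement membrane, 4 of 7 FACIT and 6 of 16 other collagens were lower, and the 1 higher gene was Col14a1 (1.15 ± 0.35, edgeR adjusted p = 0.0221). Among the large differences were those of Col7a1 (-5.20 ± 0.49, adjusted p = 0.000161) and Col11a2 (-4.99 ± 0.48, adjusted p = 0.000155). Col1a1 differed by -2.00 ± 0.53 (adjusted p = 0.0132), or by -1.26 without P53ERTAM vehicle replicate 2. Col8a1 did not pass the test, with -0.35 ± 0.34 (adjusted p = 0.444).

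Chains that assemble together are made from separate genes, so the ratio of their TPM was compared as well. There were 8 ratios in 4 comparisons, or 32 exact two-sided permutation tests of 3 against 3 tumors, where the smallest p possible is 0.1, and 13 of them reached it with no overlap. None can pass a threshold of 0.05, and after adjustment over the 32 the smallest p was 0.246. Col4a1 over Col4a2 was 1.27 to 1.32 in EV combo tumors and 1.70 to 1.96 in EV vehicle tumors, with 1.48 to 1.61 in P53ERTAM combo and 1.55 to 1.67 in P53ERTAM vehicle tumors between them. Col4a2 was thus highest relative to Col4a1 in EV combo tumors. Col5a1 over Col5a2 was 1.08 to 1.46 in EV combo tumors and 1.86 to 2.06 in EV vehicle tumors, and 1.03 to 1.26 in P53ERTAM combo and 1.15 to 1.48 in P53ERTAM vehicle tumors. Col1a1 over Col1a2 was 4.18 to 5.45 in P53ERTAM vehicle tumors, above 2.93 to 3.29 in EV vehicle tumors, 3.45 to 4.05 in P53ERTAM combo tumors and 3.03 to 3.54 in EV combo tumors. Most type I collagen holds more Col1a1 than Col1a2 chains, but RNA levels per length do not give the ratio of protein chains. Col8a1 over Col8a2 was 7.86 to 24.0 in EV combo tumors, against 26.4 to 71.5 in EV vehicle tumors. The ratios of Col6a1 and Col6a3 to Col6a2 overlapped between the groups in all 4 comparisons.

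**Figure D5:**
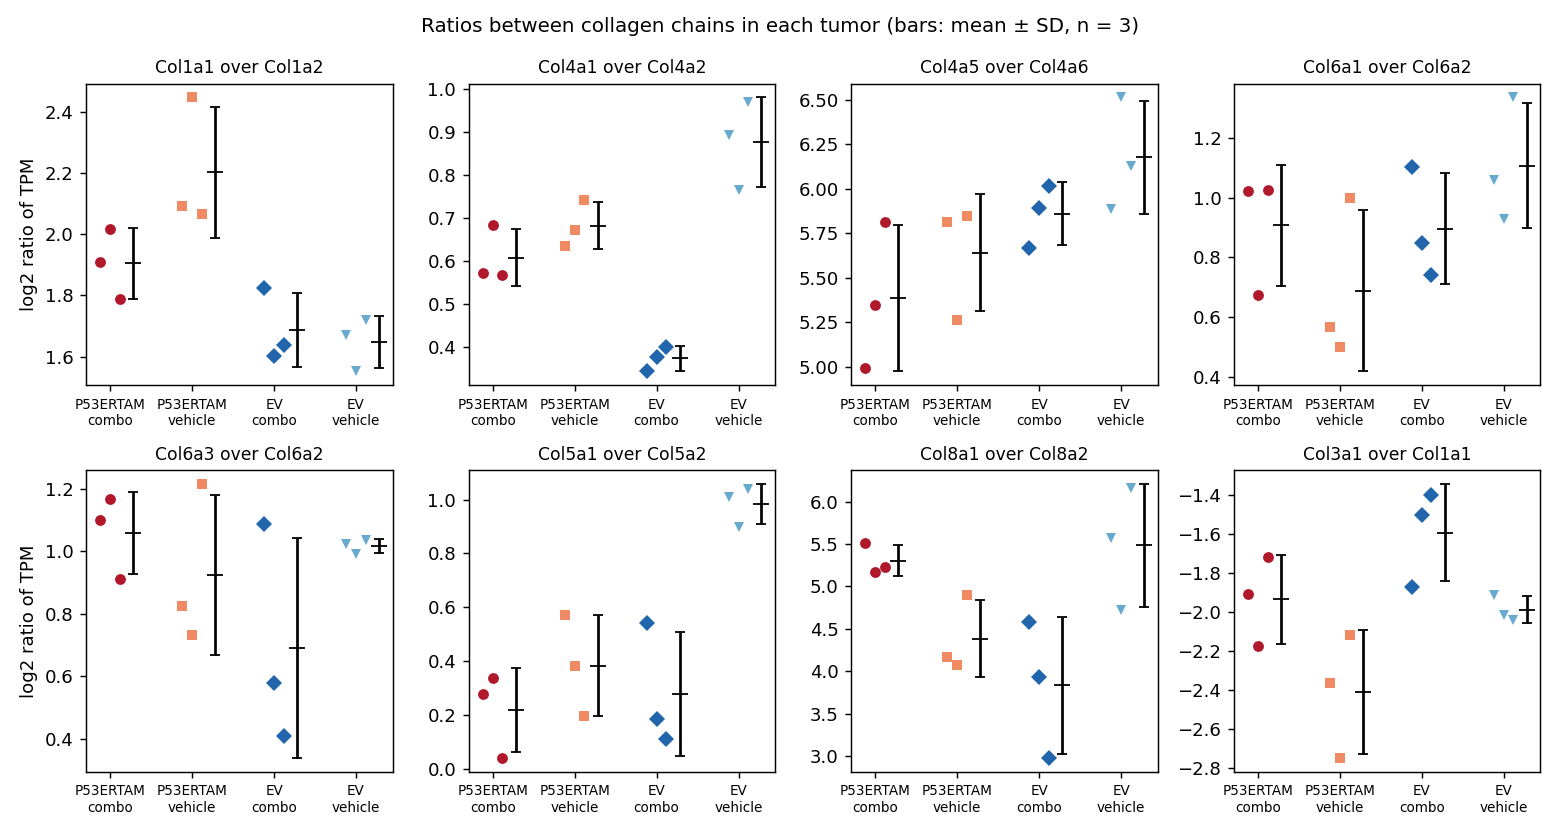
Log2 ratio of the TPM of paired collagen chains, with 1 point per tumor and the mean ± SD of 3 tumors beside them. In the panel of Col4a1 over Col4a2 the 4 groups form separate bands with EV combo at the bottom and EV vehicle at the top, apart from the 2 P53ERTAM groups, which overlap, while the type VI ratios overlap throughout.

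Enzymes and chaperones that process collagen were counted next. Of 31 genes of collagen synthesis and cross-linking, 10 rose and 3 fell with combo in EV tumors (median 0.20), against the same 18.8% and 21.1% of all genes. Adamts2 and Adamts3, which trim procollagens, rose by 1.69 ± 0.29 (edgeR adjusted p = 0.000908) and 2.46 ± 0.48 (adjusted p = 0.00216), Fkbp10, a folding factor, by 1.05 ± 0.17 (adjusted p = 0.000709) and the lysyl oxidase Loxl3 by 0.99 ± 0.17 (adjusted p = 0.000882). P4hb, a subunit of prolyl 4-hydroxylase that is also a disulfide isomerase, fell by 0.64 on the log2 scale of edgeR (adjusted p = 0.00522). By TPM its fall was smaller, to 749 ± 122.9 in EV combo tumors against 1035 ± 129 in EV vehicle tumors (SD, n = 3 each). The collagen chaperone Serpinh1 fell by 0.45 (adjusted p = 0.0225) and the collagen-inducing transcription factor Creb3l1 by 0.79 (adjusted p = 0.0259). In the same tumors, type I, III and V collagen mRNA rose. Under vehicle, 17 of 31 were higher and 3 lower in P53ERTAM tumors than in EV tumors, where 17.9% of all genes were higher and 19.8% lower, led by the prolyl 3-hydroxylase P3h2 (1.74 ± 0.16, adjusted p = 2.32e-05), Fkbp10 (1.76 ± 0.17, adjusted p = 3.42e-05), Adamts14 (2.76 ± 0.30, adjusted p = 6.59e-05) and the procollagen protease enhancer Pcolce (2.38 ± 0.27, adjusted p = 9.09e-05). Under combo, P53ERTAM exceeded EV tumors in 16 and fell short in 1, where 22.1% of all genes were higher and 22.0% lower, with Loxl4 at 21.7 ± 0.5 TPM in P53ERTAM combo tumors against 4.49 ± 1.52 TPM in EV combo tumors and Creb3l1 at 58.7 ± 7.9 TPM in P53ERTAM combo tumors against 16.7 ± 4.3 TPM in EV combo tumors. With combo in P53ERTAM tumors 1 of 31 rose and 0 fell, near the 3.3% and 2.98% of all genes. The 1 was Loxl4, which rose by 0.92 ± 0.24 (adjusted p = 0.0421).

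Genes of proteins that bind collagen fibers were counted as well. Of 15 tested, 7 rose and 0 fell with combo in EV tumors (median 0.79), where 18.8% of all genes rose and 21.1% fell. Under vehicle 8 were higher and 0 lower in P53ERTAM than in EV tumors (median 0.85), where 17.9% of all genes were higher and 19.8% lower. Under combo 5 were higher and 1 lower in P53ERTAM than in EV tumors, where 22.1% of all genes were higher and 22.0% lower. With combo in P53ERTAM tumors 2 rose, against 3.3% of all genes. They were Tgfbi (1.25 ± 0.23, edgeR adjusted p = 0.0143) and Fbn1 (0.64 ± 0.16, adjusted p = 0.0323). The microfibril protein Fbn1 averaged 49.4 ± 7.1 TPM in EV combo tumors and 17.4 ± 2.3 TPM in EV vehicle tumors, a rise of 1.33 ± 0.16 (edgeR adjusted p = 0.000135). Fibronectin, Fn1, averaged 304 ± 144 TPM in EV combo tumors and 102 ± 46 TPM in EV vehicle tumors (1.41 ± 0.38, adjusted p = 0.0117). Among 17 noncollagen basement membrane genes, 8 rose and 1 fell with combo in EV tumors, with the laminin chain Lama5 up by 0.94 ± 0.13 (adjusted p = 0.000317) and the perlecan gene Hspg2 by 0.88 ± 0.19 (adjusted p = 0.00324). Lama3, which anchors epithelium through laminin 332, averaged 5.01 ± 1.02 TPM in P53ERTAM combo tumors against 31.7 ± 4.7 TPM in EV combo tumors (-2.59 ± 0.21, adjusted p = 2.63e-06). Of 10 collagen receptors and uptake genes, 3 rose and 1 fell with combo in EV tumors. The 1 that fell was the integrin chain Itgb1, at 314 ± 29 TPM in EV combo against 420 ± 59 TPM in EV vehicle tumors (-0.60 ± 0.16, adjusted p = 0.0097). P53ERTAM exceeded EV tumors in 7 and fell short in 1 under combo, and in 3 and 0 under vehicle. The collagen uptake receptor Mrc2 averaged 28.1 ± 7.8 TPM in EV combo tumors and 10.5 ± 0.6 TPM in EV vehicle tumors (1.24 ± 0.19, adjusted p = 0.000469), and the integrin chain Itga1 rose by 1.32 ± 0.24 (adjusted p = 0.00105). TGF-beta is a known inducer of fibrillar collagen, and of 15 tested genes of its ligands, receptors and targets 1 rose and 4 fell with combo in EV tumors, where 18.8% of all genes rose and 21.1% fell. Among them Tgfb1 fell to 37.6 ± 1.1 TPM in EV combo tumors, against 52.0 ± 2.1 TPM in EV vehicle tumors (log2 fold change -0.64 ± 0.10, adjusted p = 0.000621). Under vehicle 6 of the 15 were higher and 1 lower in P53ERTAM than in EV tumors, where 17.9% of all genes were higher and 19.8% lower. With combo in P53ERTAM tumors 2 rose and 0 fell, where 3.3% of all genes rose and 2.98% fell. Their part in the collagen values was not tested. Under combo 10 of the 15 were higher and 0 lower in P53ERTAM than in EV tumors, where 22.1% of all genes were higher and 22.0% lower, with Ccn2, a TGF-beta target, at 249 ± 24 TPM in P53ERTAM combo tumors against 61.8 ± 8.8 TPM in EV combo tumors.

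Markers of cell types were counted beside the collagens. With combo in EV tumors, 4 of 10 fibroblast markers, 5 of 9 tested pericyte and smooth muscle markers and 6 of 10 endothelial markers rose and 0 fell, with medians of 0.56, 0.69 and 0.88, where 18.8% of all genes rose and 21.1% fell. In P53ERTAM against EV tumors under vehicle, 5 fibroblast markers were higher and 1 lower, 6 pericyte and 8 endothelial markers were higher and 0 lower, with medians of 0.57, 1.14 and 1.44, where 17.9% of all genes were higher and 19.8% lower. Under combo 9 of 39 tested collagens were lower (23.1%, near the all-gene share) and 3 higher. P53ERTAM exceeded EV tumors there in 2 of 10 fibroblast, 3 of 9 tested pericyte and 6 of 10 endothelial markers. Lower were 1 fibroblast, 1 pericyte and 0 endothelial markers. All-gene shares there were 22.1% higher and 22.0% lower. Epithelial markers moved the other way, with 0 higher and 6 of 10 lower with combo in EV tumors and 0 higher and 9 of 10 lower in P53ERTAM than in EV tumors under vehicle. Summed over the list, fibroblast markers reached 320.03 to 410.2 TPM in P53ERTAM combo tumors, 246 to 318 TPM in P53ERTAM vehicle tumors, 251 to 295 TPM in EV combo tumors and 146 to 179.9 TPM in EV vehicle tumors. Endothelial markers summed to 137 to 205 TPM in P53ERTAM combo, 119 to 172 TPM in P53ERTAM vehicle, 82.3 to 151 TPM in EV combo and 35.4 to 65.7 TPM in EV vehicle tumors. No marker of fibroblasts or epithelium was at 0 counts in any group. Pdgfrb, the growth factor receptor of fibroblasts and pericytes, averaged 64.6 ± 4.0 TPM in P53ERTAM combo, 45.4 ± 6.0 TPM in P53ERTAM vehicle, 36.9 ± 10.6 TPM in EV combo and 11.7 ± 2.6 TPM in EV vehicle tumors (SD, n = 3 each). Fbln1 was the 1 fibroblast marker lower under combo, at 8.84 ± 0.53 TPM in P53ERTAM against 32.1 ± 4.9 TPM in EV tumors (-1.79 ± 0.23, edgeR adjusted p = 6.28e-05). Pdgfrb and Thy1 were higher there, and Fap, Fbln2, Mfap5, Dcn, Pdgfra, Lum and Dpt were not called. The part of cell make-up in the collagen differences was not tested. Basal keratinocyte genes differed too, since under combo Krt14 averaged 13.1 ± 2.4 TPM in P53ERTAM tumors against 219 ± 35 TPM in EV tumors, beside the epithelial anchoring genes Col7a1 and Lama3. Markers of adipocytes and osteoblasts gave 0 calls in each of the 4 comparisons among 3 and 4 tested genes, and 0 of 6 skeletal muscle markers had enough counts to be tested.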

How the data were processed

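RNA of 12 tumors was sequenced from stranded, ribosomal RNA-depleted libraries, per the labels' protocols. The deposited values are raw read counts per gene that the authors made, per the submitters' processing notes, with fastp, STAR and featureCounts on GRCm38.p5. Strand setting and annotation release are not given in the sources used here. Library totals ran between 13484873 and 24424964 counts.

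Genes were tested with edgeR 4.0.16 (robust quasi-likelihood fit, TMM, filterByExpr, R 4.3.3) with 1 mean per group over all 12 libraries, with Benjamini-Hochberg adjustment across all 17970 tested genes. TPM was computed from counts and the deposited gene lengths. TPM and the edgeR scale differ, and EV combo reads higher against EV vehicle by TPM than in the edgeR fold changes. Ratios used exact permutation tests (scipy 1.17.1). The fit was tested on simulated data. Alternatives were DESeq2 1.42.0, its size factors, no filter, protein-coding genes only, fewer groups, limma 3.58.1 voom with quality weights, a replicate block, single libraries left out, and GC and length offsets, the last chosen after seeing the data. All 43 members are named by the symbol rule. Members and gene lists were chosen with earlier results of these data known. Intervals and floors cover counting error only.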

Additional observations from a re-analysis of the deposited data

Results flagged for a closer look

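The effect of combo differed between P53ERTAM and EV tumors in 24 collagen genes by edgeR's test of that difference, given here as the log2 fold change in P53ERTAM tumors minus that in EV tumors. Among fibrillar genes it was -2.00 for Col1a1, -1.58 for Col1a2, -2.53 for Col2a1, -1.84 for Col3a1, -1.48 for Col5a1, -2.02 for Col5a2, -2.08 for Col5a3, -2.61 for Col11a1, -4.99 for Col11a2 and -4.23 for Col27a1. Among basement membrane genes it was -1.26 for Col4a1, -1.68 for Col4a2 and -1.21 for Col4a5. Among FACIT genes it was -1.33 for Col9a2, -0.87 for Col9a3, -3.50 for Col16a1, -2.79 for Col20a1 and 1.15 for Col14a1. Among the others it was -1.24 for Col6a1, -1.72 for Col6a2, -1.26 for Col6a3, -5.20 for Col7a1, -2.81 for Col8a2 and -5.95 for Col25a1. Some of these calls were lost in single alternatives. Col4a1 was called in 7 of 19 (adjusted p up to 0.155), Col6a1 in 14 (up to 0.167), Col14a1 in 15 (up to 0.059) and Col1a2 in 16 (up to 0.0918). Col11a1 was called in 17, and without EV combo replicate 1 it was -1.94 (adjusted p = 0.0511), with adjusted p up to 0.0825. Col25a1 was called in 18, was lost with voom (adjusted p = 0.0812) and ran between -6.89 and -4.20, the last without EV combo replicate 1. Without that tumor Col27a1 was -3.37, without P53ERTAM vehicle replicate 2 Col20a1 was -2.08 and Col1a1 -1.26, and without EV vehicle replicate 2 Col8a2 was -3.50.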

How the results depend on the processing

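With combo in P53ERTAM tumors 2 collagen genes were called, against 4 with DESeq2, 4 with only the groups compared, 1 without a filter, 0 with EV combo left out, 8 with voom and 0 to 3 when 1 library was left out. Deviations from group means correlated between -0.19 and 0.33 in same-numbered libraries of different groups. In differently numbered ones they correlated between -0.39 and 0.22. These overlapping ranges cannot decide whether the numbers pair the tumors. With a replicate block the count with combo in P53ERTAM tumors was 1. The block gave 28 calls with combo in EV tumors, 11 under combo, 26 under vehicle and 23 in the interaction. P53ERTAM against EV under combo gave 7 to 12 calls when 1 library was left out, against 12. In EV tumors all alternatives gave 26 to 31 calls, under vehicle 18 to 29 and in the interaction 16 to 27. As a share of protein-coding counts, collagen differed by 0.418 percentage points with combo in EV tumors and by -0.163 for P53ERTAM against EV under combo, against 0.296 and -0.056 of all counts. Chain ratios without overlap numbered 13, and 13 to 20 when 1 library was left out.

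Signs turned for uncalled genes, and the cause was not tested. With combo in P53ERTAM tumors voom gave 0.10 for Col1a2, 0.31 for Col3a1, 0.27 for Col4a1, 0.13 for Col5a1 and 0.38 for Col5a2, and protein-coding genes only gave -0.022 for Col4a2. Leaving out 1 library there gave -0.93 to 0.077 for Col1a1, -0.47 to 0.26 for Col1a2, -0.26 to 0.41 for Col3a1, -0.25 to 0.22 for Col4a1, -0.15 to 0.31 for Col4a2, -0.43 to 0.28 for Col5a1 and -0.30 to 0.45 for Col5a2. In EV tumors with combo it gave -0.35 to 0.0044 for Col14a1 and -0.16 to 0.35 for Col18a1. Under combo Col3a1 was -0.018 with DESeq2 and with its size factors, -0.10 with protein-coding genes, -0.031 with only the groups compared and -0.047 with GC and length offsets. There, leaving out 1 library gave -0.06 to 0.47 for Col1a2, -0.25 to 0.42 for Col3a1, -0.022 to 0.29 for Col5a1, -0.0078 to 0.46 for Col6a1 and -0.051 to 0.42 for Col6a2. GC and length offsets moved the median of all genes to -0.19 with combo in EV tumors (-0.07 without) and to -0.11 under vehicle (0.01 without). They gave 2753 higher of 7682 called with combo in EV tumors and 2580 higher of 7131 under vehicle, against 3386 of 7169 and 3217 of 6784. Scarce members such as Col6a5 are limited by depth.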
